A study of Mus musculus with 6 samples.

Results

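Ferritin and the other genes of iron handling were examined in alveolar macrophages of mice with a knockout of the histone deacetylase gene Hdac3 and of control mice. The set holds 10 genes, chosen by symbol, out of 18392 genes listed: the ferritin subunits Fth1 and Ftl1, the ferritin cargo receptor Ncoa4, the transferrin receptor Tfrc, the metal transporters Slc11a1 and Slc11a2, the iron exporter Slc40a1, the heme-degrading enzyme Hmox1, and the iron regulatory proteins Aco1 and Ireb2. All 10 were listed, and all 10 reached the mean of 1 FPKM over the 6 libraries that was required for testing. FPKM are counts of sequenced fragments scaled by transcript length and by library size. In knockout mice both Hdac3 alleles were floxed and a Cre recombinase was expressed from a Cd11c (Itgax) promoter, which is active in alveolar macrophages and in other Cd11c-expressing cells (3 libraries). Control mice carried the floxed alleles without the Cre (3 libraries), so loss of Hdac3 and presence of the Cre cannot be told apart. All mice were C57BL/6 animals of 6 weeks, and the macrophages of both groups were purified from digested lung by flow cytometry. The labels do not tie a library to a mouse, so the p-values measure the spread between libraries, which may be technical.

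Cells take up transferrin-bound iron through the transferrin receptor, move it from the endosome into the cytosol through the transporter encoded by Slc11a2, store it in shells made of ferritin heavy and light chains, and export it through ferroportin, the product of Slc40a1. Macrophages also free iron from heme with heme oxygenase. The iron regulatory proteins bind a stem-loop in messenger RNAs, the iron-responsive element. When iron is scarce they block translation of ferritin and ferroportin messages, whose element lies in the 5′ UTR, and stabilise the transferrin receptor message, whose elements lie in the 3′ UTR. Alveolar macrophages clear inhaled particles and red cell debris from the airspace and hold the iron they take up in ferritin. RNA sequencing reads the level of these transcripts but not how far they were translated.

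In RefSeq on GRCm38.p6 the storage genes span Fth1 at chr19:9980600-9985111 (gene ID 14319), Ftl1 at chr7:45457944-45459886 (gene ID 14325) and Ncoa4 at chr14:32159879-32179855 (gene ID 27057). The genes of import and export are Tfrc at chr16:32608896-32632794 (gene ID 22042), Slc11a1 at chr1:74375014-74386057 (gene ID 18173), Slc11a2 at chr15:100387898-100424209 (gene ID 18174) and Slc40a1 at chr1:45908070-45926532 (gene ID 53945). The heme and regulatory genes are Hmox1 at chr8:75093618-75100593 (gene ID 15368), Ireb2 at chr9:54862658-54912534 (gene ID 64602) and Aco1 at chr4:40143265-40199009 (gene ID 11428).

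The elements are shown because their place in the message, at the 5′ or the 3′ end, is where the known regulation of these members acts. For all 10 members, the GENCODE M21 (GRCm38) transcripts that match the deposited RefSeq transcript IDs were searched on the sense strand. The pattern was the bulged C and the loop of the element: a C, 5 stem bases, CAGTG, a last loop base other than G, and 5 bases that pair with the stem bases (G-T pairs allowed). A match was found in 4 of 10 members, against 1.01% of 21901 protein-coding genes. That share counts a gene if any of its protein-coding transcripts matched, whereas other isoforms of the members were left out of their count. The members were chosen as iron genes and the pattern follows the known element, so this contrast carries no test. Elements with extra or unpaired bases in this part of the stem would be missed. A member without a match, such as Slc11a2, may therefore still carry one. Each site is printed 5′ to 3′ over 28 bases, with the bulged C and the 6 loop bases in capitals.
Fth1: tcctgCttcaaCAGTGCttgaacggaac
Ftl1: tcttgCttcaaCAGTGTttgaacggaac
Slc40a1: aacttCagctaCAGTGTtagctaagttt
Tfrc: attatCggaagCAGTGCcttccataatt
Tfrc: attatCgggagCAGTGTcttccataatg
Tfrc: tatatCggagaCAGTGAtctccatatgt
Tfrc: attatCgggaaCAGTGTttcccataatt
The Fth1 site lies in the 5′ UTR in exon 1 of 4 (chr19:9982733-9982760, plus strand), the Ftl1 site in the 5′ UTR in exon 1 of 4 (chr7:45459779-45459806, minus strand) and the Slc40a1 site in the 5′ UTR in exon 1 of 8 (chr1:45925465-45925492, minus strand). The 4 Tfrc sites all lie in the 3′ UTR in exon 19 of 19 on the plus strand, at chr16:32631220-32631247, chr16:32631599-32631626, chr16:32631664-32631691 and chr16:32631711-32631738. The ferritin heavy and light chain sites carry the same 5 bases on the 5′ side of the stem. The message levels of these 4 genes did not move as a block: Fth1, Ftl1 and Tfrc were higher in knockouts and Slc40a1 was lower, with values given below. Action through the elements was not tested.

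The libraries followed their labels. Hdac3 read 3.97 to 5.05 FPKM in knockout libraries and 16.9 to 19.9 FPKM in control libraries. FPKM keep no absolute depth. An index taken from the most frequent FPKM ratio of genes of low level was 96.6 to 105% of that of control library 1. FPKM are already scaled by library size, so this index cannot show whether the libraries were sequenced equally deep. Taken across genes (not independent replicates), Pearson correlations of log2(FPKM + 1) were 0.990 to 0.991 among knockouts, 0.985 to 0.992 among controls and 0.929 to 0.943 between groups.

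For 10847 genes limma compared log2(FPKM + 1), knockout minus control, and a gene was called where its p after Benjamini-Hochberg adjustment was below 0.05. The median log2 change of all tested genes was -0.31 as deposited. It was 0.022 once libraries had been rescaled by TMM, a trimmed mean of the log ratios between them. Changes of the iron and heme genes are therefore given under both scalings. As deposited, 11% of all tested genes were called higher and 58.8% lower. The shares after TMM were 30% and 26%, and counts over a list are to be read against these shares. FPKM are shares of a library, so fewer cells of a type and less RNA per cell cannot be told apart.

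All 12 alveolar macrophage markers were tested. As deposited 6 of them were called higher and 4 lower, and TMM gave 7 and 4. Their summed level was 24214 to 30915 FPKM in knockouts and 15243 to 17374 FPKM in controls, and most of it was the chitinase-like gene Chil3, at 17845 to 25158 FPKM in knockouts and 11867 to 14326 FPKM in controls. The list did not move one way: Cidec, Krt79, Pparg and Marco were lower under both scalings, with log2 changes as deposited of -3.07, -2.82, -0.80 and -0.71. Higher under both scalings were Car4, Fabp5, Plet1, Itgax, Mrc1 and Chil3, at 2.14, 1.13, 0.99, 0.97, 0.77 and 0.76 as deposited. The sialic acid receptor Siglecf, 1 of the markers of these cells in mouse, read 216 to 236 FPKM in knockouts and 230 to 237 FPKM in controls. Siglecf was not called as deposited but was called higher after TMM (log2 change 0.32; limma adjusted p = 0.0016).

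Markers of other cells were also detected. Of 8 erythroid markers 5 were tested, and 1 of them, Ahsp, was higher under both scalings. The other 4 were the globin genes Hbb-bs, Hbb-bt, Hba-a1 and Hba-a2, which were not called under either scaling. Their log2 changes as deposited were negative, at -1.5, -2.2, -2.1 and -0.92, and their groups overlapped. The summed level of the 8 erythroid markers was 48.3 to 128 FPKM in knockouts and 49.0 to 297 FPKM in controls. That of 7 lymphocyte markers was 4.93 to 6.31 FPKM in knockouts and 14.5 to 28.3 FPKM in controls, with 5 of 5 tested lower under both scalings, against a background of 58.8% lower as deposited and 26% after TMM. That of 8 lung epithelial and endothelial markers was 24.3 to 96.0 FPKM in knockouts and 90.8 to 292 FPKM in controls, with 6 of 8 lower as deposited and 3 of 8 after TMM, against the same background. For 10 markers of monocytes and interstitial macrophages it was 8.41 to 11.2 FPKM in knockouts and 8.54 to 11.4 FPKM in controls. Of 4 tested, 1 was higher and 2 lower as deposited, and 2 were higher and 1 lower after TMM, and Timd4 was at 0 in all 3 knockout libraries. For 8 neutrophil markers it was 38.0 to 57.5 FPKM in knockouts and 68.2 to 87.2 FPKM in controls. That gap lay in Csf3r, at 3.81 to 5.62 FPKM in knockouts and 25.15 to 50.5 FPKM in controls, the 1 of 5 tested that was lower, while the groups overlapped in the other 4. For 6 dendritic cell markers it was 4.3 to 7.81 FPKM in knockouts and 4.53 to 13 FPKM in controls, with 1 higher and 1 lower of 2 tested under both scalings. The eosinophil markers summed to at most 0.72 FPKM in a knockout library and 1.26 FPKM in a control library, none reached the level tested, and Epx and Ccr3 did not exceed 0.02 FPKM. No listed marker was at 0 in every library. The part of these cells in the results below was not tested.

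Iron storage transcripts were among the most abundant of these cells and were higher still in knockouts. Fth1, the ferritin heavy chain that oxidises iron as it enters the shell, read 21453, 22767 and 23924 FPKM in knockout libraries, against 7972, 7598 and 7351 FPKM in control libraries. Every knockout library stood above every control library. The change was 2.97-fold (log2 change 1.57, SE 0.07; limma adjusted p = 3.8e-07), or 1.95 on the log2 scale after TMM. Ftl1, the light chain that favours formation of the iron core, read 14666, 16340 and 15727 FPKM in knockout libraries, against 7048, 6942 and 6382 FPKM in control libraries. The groups did not overlap, and the change was 2.29-fold (log2 change 1.20, SE 0.07; limma adjusted p = 2.0e-06), or 1.58 on the log2 scale after TMM. Ferritin genes have processed pseudogenes in the genome, so how reads were shared with such copies is uncertain.

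In 2 of 3 knockout libraries Fth1 was the 2nd most abundant of all listed genes, and it was the 3rd in the other knockout library and in every control library. Ftl1 was the 4th in all 6 libraries. Both ferritin transcripts together held 7.37, 7.85 and 7.85% of the FPKM sum in knockout libraries, against 3.24, 3.11 and 2.97% in control libraries. The difference of the means was 4.59 percentage points (exact permutation test, two-sided, p = 0.10, the smallest that 3 against 3 libraries allow). Without the ferritin pair the FPKM of all other genes summed to 453962 to 465315 in knockout libraries and 448521 to 453653 in control libraries.

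**Figure D1:**
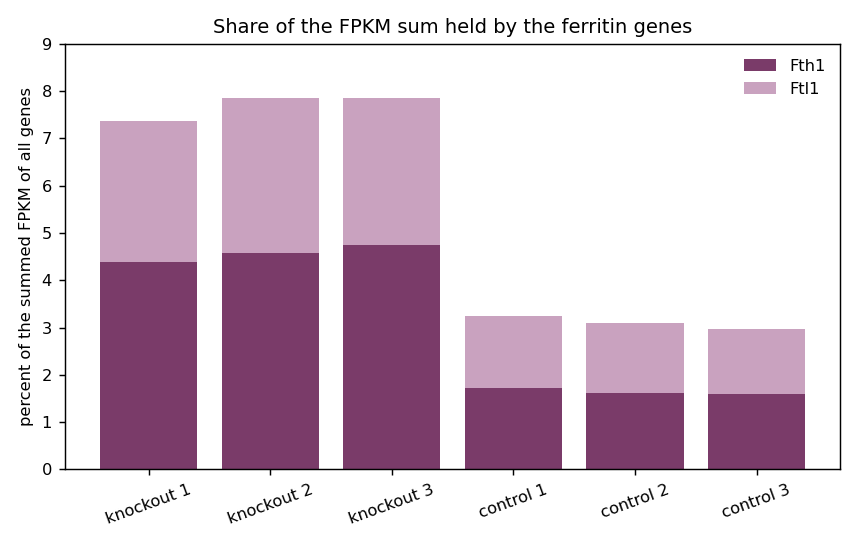
Share of each library's summed FPKM held by Fth1 (dark) and Ftl1 (light), in percent, 1 bar per library. The 3 knockout bars reach 7.37 to 7.85% and the 3 control bars 2.97 to 3.24%.

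The log2 change was larger for the heavy chain, 1.57, than for the light chain, 1.20. Within a library, where scaling cancels, Fth1 stood at 1.46, 1.39 and 1.52 times Ftl1 in knockout libraries, against 1.13, 1.10 and 1.15 times in control libraries. The log2 ratio was 0.54 ± 0.06 in knockouts and 0.17 ± 0.04 in controls (SD, n = 3 each), a difference of 0.37 (exact permutation test, two-sided, p = 0.10, the smallest possible; p = 0.13 adjusted over 4 ratios). All 3 knockout ratios were above all 3 control ratios.

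Ncoa4, the receptor that carries ferritin to lysosomes to release its iron, changed less than its cargo. It read 232, 224 and 182 FPKM in knockout libraries, against 164, 168 and 185 FPKM in control libraries. The groups overlapped, since knockout library 3 lay below control library 3. As deposited the log2 change of 0.29 (SE 0.10) was called, with a limma adjusted p of 0.023, and TMM gave 0.67. The call was lost in 4 of 6 fits that left out 1 library: the adjusted p was 0.081 without knockout library 1, 0.081 without knockout library 2, 0.071 without control library 1 and 0.069 without control library 2.

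The genes of import and export moved in different directions. Tfrc, the receptor for transferrin-bound iron, read 13.5, 10.8 and 11.6 FPKM in knockout libraries, against 5.15, 5.48 and 5.07 FPKM in control libraries. All knockout values lay above all control values (log2 change 1.05, SE 0.09; limma adjusted p = 1.0e-05), and the log2 change was 1.38 after TMM. This is the message with the 4 matches to the element in its 3′ UTR printed above. Ferritin and the transferrin receptor thus both rose at the transcript level.

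Slc11a1 had the largest change of the 10 genes. It encodes a metal transporter of the phagosome membrane, known as Nramp1, and C57BL/6 mice carry a natural variant whose protein is not functional. Its transcript read 11.8, 10.6 and 7.48 FPKM in knockout libraries, against 1.02, 1.10 and 1.59 FPKM in control libraries. The groups were far apart, with the lowest knockout value in library 3 and the highest control value in library 3. The change of the means was 8.06-fold (log2 change 2.28, SE 0.16; limma adjusted p = 1.1e-05), and the log2 change was 2.55 after TMM and 2.91 with 0.1 FPKM in place of 1 FPKM added. Its paralog Slc11a2, the endosomal iron transporter DMT1, read 6.27, 5.82 and 5.52 FPKM in knockout libraries, against 4.8, 5.43 and 5.27 FPKM in control libraries. All knockout values were above all control values by a narrow margin. The change was not called as deposited (log2 change 0.16, 95% interval -0.02 to 0.33; limma adjusted p = 0.10) and rose after TMM (log2 change 0.47; limma adjusted p = 7.7e-04).

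Slc40a1, which encodes ferroportin, the cellular iron exporter, was expressed at a low level and was lower in knockouts. It read 1.07, 0.92 and 0.52 FPKM in knockout libraries, against 2.04, 2.27 and 2.58 FPKM in control libraries. The groups did not overlap. As deposited the log2 change was -0.85, with an SE of 0.14 and a limma adjusted p of 4.5e-04. It was -0.64 after TMM and -1.40 with 0.1 FPKM added in place of 1 FPKM, since the added constant understates changes at this level. Knockout means were 0.36 times control means. In other tissue macrophages of the mouse, such as those that recycle red cells in the spleen, ferroportin is known as a strongly expressed gene. No other macrophages were measured here, so its level was not compared with theirs. In both groups it was far below that of ferritin, which is among the most abundant transcripts of these cells.

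Slc11a2 lay below Slc11a1 in every knockout library and above it in every control library. It stood at 0.53, 0.55 and 0.74 times Slc11a1 in knockout libraries, against 4.71, 4.94 and 3.31 times in control libraries. The log2 ratio was -0.74 ± 0.26 in knockouts and 2.09 ± 0.31 in controls (SD, n = 3 each), a difference of -2.83. The exporter was lower relative to the transferrin receptor in every knockout library. Slc40a1 stood at 0.079, 0.086 and 0.045 times Tfrc in knockout libraries, against 0.40, 0.41 and 0.51 times in control libraries, with log2 ratios of -3.90 ± 0.51 in knockouts and -1.19 ± 0.19 in controls (SD, n = 3 each) and a difference of -2.70. For both ratios the exact two-sided permutation p was 0.10, the smallest possible, and 0.13 adjusted over the 4 ratios.

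**Figure D2:**
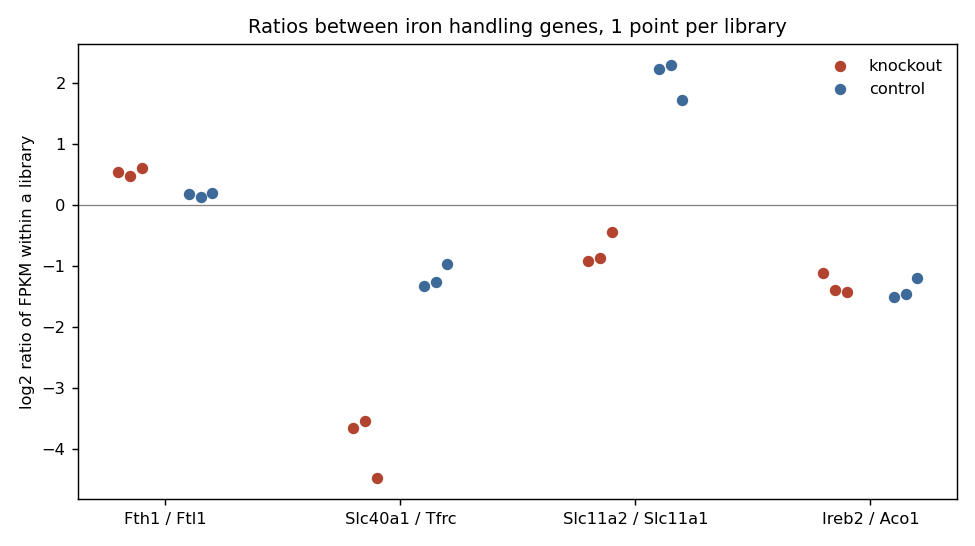
Log2 ratio of the FPKM of 2 iron handling genes within each library, 1 point per library, knockout left of control. The groups are apart for Fth1 / Ftl1, Slc40a1 / Tfrc and Slc11a2 / Slc11a1 and overlap for Ireb2 / Aco1.

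Hmox1, the inducible heme oxygenase that opens heme and releases its iron, read 218, 250 and 218 FPKM in knockout libraries, against 103, 128 and 105 FPKM in control libraries. All knockout libraries were above all control libraries. The change was 2.05-fold (log2 change 1.03, SE 0.09; limma adjusted p = 1.8e-05), with a log2 change of 1.41 after TMM.

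The iron regulatory proteins were both lower as deposited. Aco1 encodes IRP1, which is the cytosolic aconitase when it holds an iron-sulfur cluster and binds RNA when it does not. It read 20.2, 20.04 and 21.01 FPKM in knockout libraries, against 31.5, 31.8 and 30.03 FPKM in control libraries. The groups were well apart, with a log2 change of -0.58 (SE 0.06; limma adjusted p = 2.3e-05), and of -0.22 after TMM, where it was still called (limma adjusted p = 0.010). Ireb2 encodes IRP2, which is degraded when iron is plentiful. It read 9.28, 7.61 and 7.85 FPKM in knockout libraries, against 11.1, 11.6 and 13.1 FPKM in control libraries. The groups did not overlap as deposited (log2 change -0.48, SE 0.09; limma adjusted p = 1.2e-03), but the call was lost after TMM (log2 change -0.14; limma adjusted p = 0.21). The median of all tested genes was -0.31 on the same scale as deposited. The ratio of Ireb2 to Aco1 did not separate the groups: the log2 ratio was -1.31 ± 0.17 in knockouts and -1.39 ± 0.16 in controls (SD, n = 3 each; exact permutation test, two-sided, p = 0.50). The difference was 0.07 with all libraries and -0.022 without knockout library 1.

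**Figure D3:**
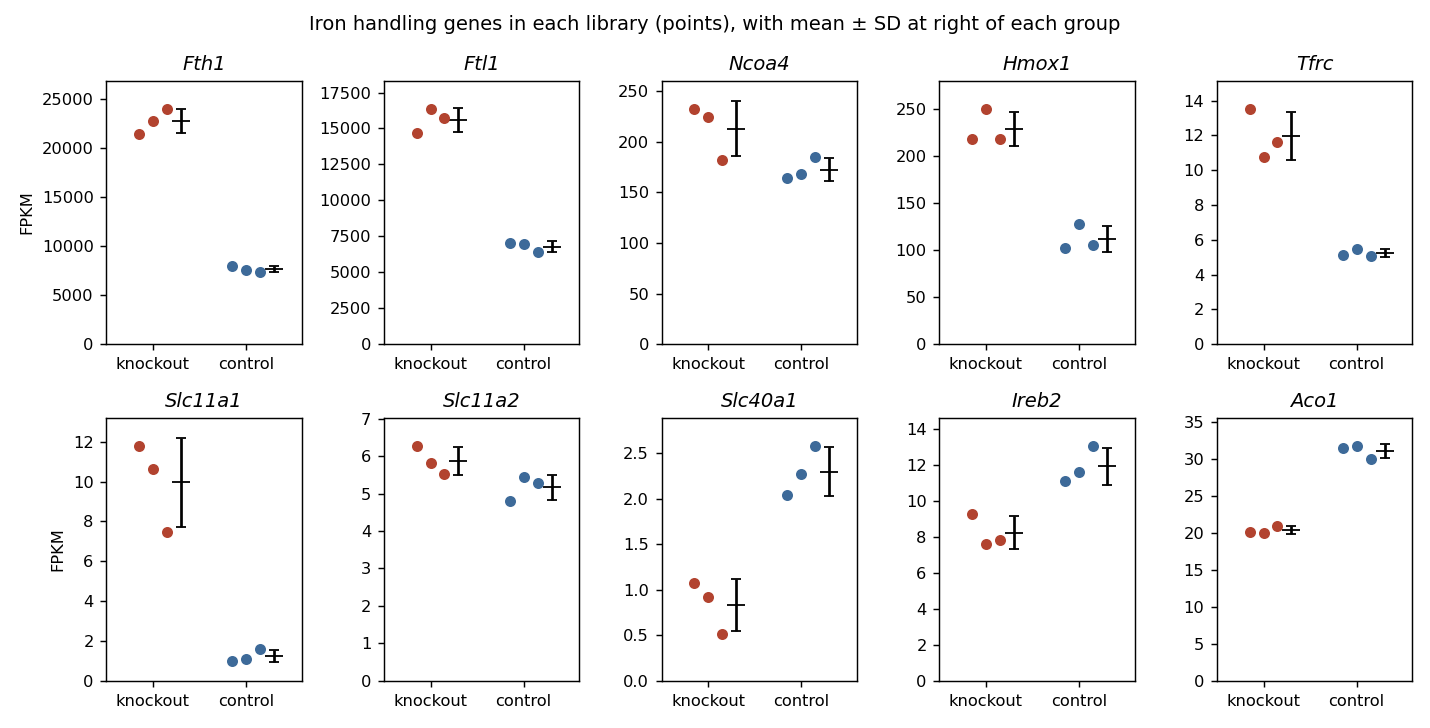
FPKM of the 10 iron handling genes, 1 panel per gene with its own linear axis from 0. Points are libraries, with knockout left of control, and the black bar beside each group is the mean ± SD (n = 3). The groups overlap for Ncoa4 and are apart for the other 9 genes.

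As deposited, 6 of the 10 genes were called higher, 3 lower and 1 was not called. The background was 69.8% of all tested genes called, 11% higher and 58.8% lower. After TMM 7 of the 10 were called higher, 2 lower and 1 was not called, and of 10817 genes tested 56% were called, 30% higher and 26% lower. The groups stood apart in 9 of 10 members, 6 with the knockouts above and 3 with the knockouts below, while 12.1% of all tested genes had all knockout libraries higher and 62.4% all lower. The median log2 change of the members was 0.66 as deposited and 1.03 after TMM. The members were picked with results of these data known, so these counts describe them and carry no test.

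**Figure D4:**
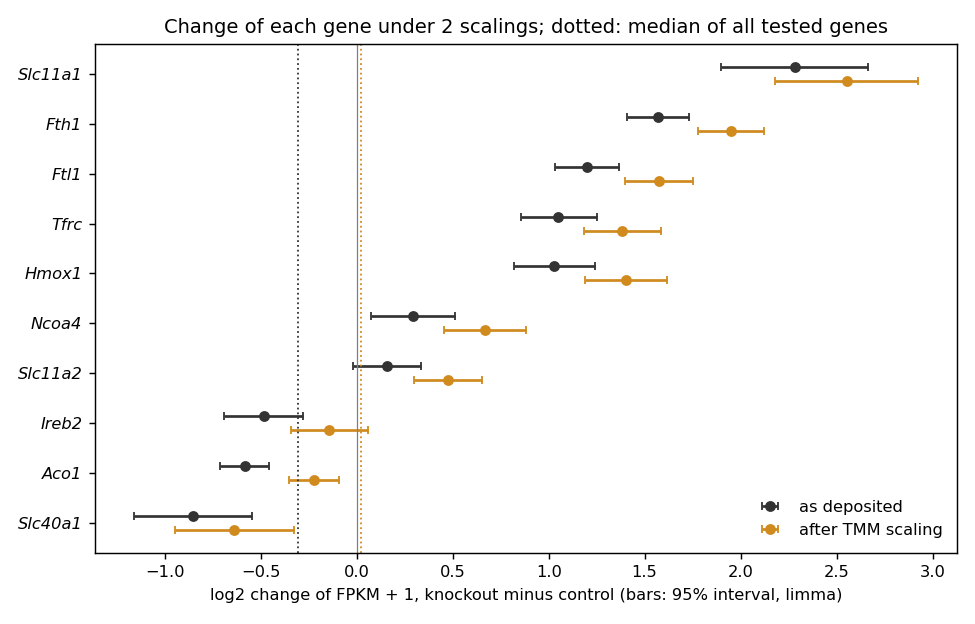
Log2 change of FPKM + 1, knockout minus control, with 95% interval from limma, for each of the 10 genes as deposited (dark) and after TMM scaling (orange). Dotted lines mark the median of all tested genes, -0.31 as deposited and 0.022 after TMM. Slc11a1 and Fth1 stand farthest to the right and Slc40a1 farthest to the left.

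FPKM are per length, so levels can be set side by side between genes. In knockouts the order by mean was Fth1, Ftl1, Hmox1, Ncoa4, Aco1, Tfrc, Slc11a1, Ireb2, Slc11a2 and Slc40a1. The ranges of neighbours overlapped for Hmox1 and Ncoa4, for Tfrc and Slc11a1 and for Slc11a1 and Ireb2. In controls the order was Fth1, Ftl1, Ncoa4, Hmox1, Aco1, Ireb2, Tfrc, Slc11a2, Slc40a1 and Slc11a1, with overlapping ranges for Tfrc and Slc11a2 only. Slc11a1 thus stood 7th of the 10 in knockouts and 10th in controls.

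The regions just before the start sites of the ferritin genes are shown because both transcripts rose together and both lie near the top of the table. Each line holds the 250 bases before a RefSeq start on GRCm38.p6, 5′ to 3′, with the CCAAT motif on either strand (read as ATTGG on the strand printed) in capitals.
Fth1: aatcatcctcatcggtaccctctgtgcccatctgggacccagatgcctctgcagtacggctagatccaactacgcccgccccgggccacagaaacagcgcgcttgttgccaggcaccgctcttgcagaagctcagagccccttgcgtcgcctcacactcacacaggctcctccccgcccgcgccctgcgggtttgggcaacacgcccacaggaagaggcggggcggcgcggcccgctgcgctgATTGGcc
Ftl1: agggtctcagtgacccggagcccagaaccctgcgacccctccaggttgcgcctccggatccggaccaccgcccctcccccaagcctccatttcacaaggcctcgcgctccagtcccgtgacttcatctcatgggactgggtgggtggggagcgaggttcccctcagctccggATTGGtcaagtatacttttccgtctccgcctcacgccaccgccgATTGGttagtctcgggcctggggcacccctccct
The Fth1 window is chr19:9982396-9982645 on the plus strand, at the downstream of 2 starts listed, and holds 1 match. The window of the upstream Fth1 start, chr19:9980350-9980599, holds 0. The Ftl1 window is chr7:45459887-45460136 on the minus strand and holds 2 matches. Of the 2 Tfrc windows 1 also holds CCAAT, so the motif is not particular to ferritin. CCAAT was present in 33.8% of 32851 windows of the same length over all genes, and 10.1% held 2 or more. The antioxidant response core TGACNNNGC, present in 10.2% of all windows, and the E-box CACGTG, present in 6.02%, were in neither ferritin window on either strand. Only the 250 bases before each start were searched, so sites farther upstream would have been missed and the genes may still have them. Windows were found for 7 of 10 members, 11 windows in all, of which 1, of Ncoa4, held TGACNNNGC and 0 held CACGTG.

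Other genes of iron and heme handling moved in both directions, and a few changed as strongly as ferritin. Of 92 genes in 6 lists, 89 were listed and 69 tested, of which 12 were called higher, 37 lower and 20 not at all as deposited, beside 11% higher and 58.8% lower of all tested genes. After TMM the counts were 29 higher, 12 lower and 28 not called, beside 30% higher and 26% lower. Their median log2 change was -0.25 as deposited and 0.11 after TMM, close to that of all tested genes. Of the genes not tested, 15 did not exceed 1 FPKM in any library. Values of these genes are means ± SD (n = 3 each).

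In iron uptake and transfer within the cell, the 14 genes tested split into 3 that rose, 9 that fell and 2 not called as deposited (TMM: 5, 5 and 4). Of all tested genes 11% were higher and 58.8% lower (TMM: 30% and 26%), so the share that fell as deposited was near the background. Fbxl5, the iron-sensing ubiquitin ligase subunit that targets IRP2 for degradation, rose to 204 ± 15.1 FPKM in knockouts, against 70.6 ± 1.26 FPKM in controls (log2 change 1.51; limma adjusted p = 3.0e-07; 1.89 after TMM). Transferrin itself (Trf), the iron carrier of plasma, fell to 326 ± 18.6 FPKM in knockouts, against 747 ± 47.4 FPKM in controls (log2 change -1.20, -0.82 after TMM). Slc22a17, a receptor for the siderophore-binding protein lipocalin 2, fell to 7.26 ± 0.76 FPKM in knockouts, against 18.8 ± 1.18 FPKM in controls (log2 change -1.27, -0.92 after TMM). Slc39a14, a transporter of iron that is not bound to transferrin, fell to 6.59 ± 0.37 FPKM in knockouts, against 12.7 ± 0.81 FPKM in controls (log2 change -0.86, -0.52 after TMM). Among these 4 genes Fbxl5 alone was higher in knockouts, under both scalings.

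In heme transport, breakdown and regulation, 4 of 12 genes rose, 7 fell and 1 was not called as deposited (TMM: 5, 2 and 5), against a background of 11% higher and 58.8% lower (TMM: 30% and 26%). Hmox2, the constitutive heme oxygenase, rose beside Hmox1, to 134 ± 7.05 FPKM in knockouts, against 72.4 ± 4.56 FPKM in controls (log2 change 0.88; limma adjusted p = 6.8e-06; 1.25 after TMM). Bach1, a heme-binding repressor of Hmox1 and of ferritin genes, fell to 17.3 ± 1.21 FPKM in knockouts, against 31.6 ± 0.58 FPKM in controls (log2 change -0.83; limma adjusted p = 7.3e-06; -0.47 after TMM). Slc48a1, which carries heme out of the phagolysosome, fell to 37.7 ± 1.97 FPKM in knockouts, against 68.2 ± 3.76 FPKM in controls (log2 change -0.84, -0.47 after TMM). Flvcr1, a heme exporter listed under its older symbol Mfsd7b, rose to 12.99 ± 0.28 FPKM in knockouts, against 6.98 ± 0.84 FPKM in controls (log2 change 0.81, 1.15 after TMM). The enzymes that open heme were thus higher and the lysosomal heme carrier lower under both scalings.

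In heme synthesis, 10 genes were tested, and 1 rose, 6 fell and 3 were not called as deposited (TMM: 4, 1 and 5), near the background of 11% higher and 58.8% lower as deposited (TMM: 30% and 26%). The 1 that rose as deposited was Alas1, the first and rate-limiting enzyme outside red cells. It reached 355 ± 24.9 FPKM in knockouts, against 93.4 ± 2.52 FPKM in controls (log2 change 1.91; limma adjusted p = 8.2e-08; 2.29 after TMM). Ppox, a late enzyme of the pathway, fell to 12.3 ± 1.02 FPKM in knockouts, against 24.6 ± 2.02 FPKM in controls (log2 change -0.95, -0.59 after TMM). Cpox fell as deposited (log2 change -0.44) and was not called after TMM (-0.11), while the change of Urod was -0.34, called, as deposited and 0.025, not called, after TMM. The erythroid paralog Alas2 stayed at or below 1.29 FPKM in all 6 libraries.

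In mitochondrial iron and iron-sulfur cluster assembly, 21 genes were tested, with 3 up, 10 down and 8 not called as deposited (TMM: 9, 4 and 8). The background was 11% up and 58.8% down (TMM: 30% and 26%). Lyrm4, a partner of the cysteine desulfurase, fell to 13.99 ± 0.62 FPKM in knockouts, against 26.4 ± 1.89 FPKM in controls (log2 change -0.87, -0.51 after TMM). Nfu1, a late-acting cluster carrier, fell to 34.9 ± 2.14 FPKM in knockouts, against 56.9 ± 0.99 FPKM in controls (log2 change -0.69, -0.32 after TMM). The mitochondrial iron importer Slc25a28 fell to 18.7 ± 1.56 FPKM in knockouts, against 30.3 ± 0.59 FPKM in controls (log2 change -0.67, -0.30 after TMM). Cisd3, an iron-sulfur protein of mitochondria, rose to 14.4 ± 2.72 FPKM in knockouts, against 9.55 ± 0.99 FPKM in controls (log2 change 0.54, 0.88 after TMM). In cytosolic cluster assembly, 11 genes were tested, with 1 up, 5 down and 5 not called as deposited (TMM: 5, 0 and 6), beside 11% up and 58.8% down of all tested genes (TMM: 30% and 26%). The falls of Ndor1, Nubp1 and Ciao3 (log2 changes -0.49, -0.47 and -0.38) were not called after TMM, and Bola2 rose (0.33, 0.70 after TMM), though not called when knockout library 2 or 3 or control library 3 was left out (limma adjusted p = 0.073, 0.087 and 0.052). Of 11 genes of iron export and the hepcidin axis only App reached the level tested, and its log2 change was 0.08, not called, as deposited and 0.46, called, after TMM.

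**Figure D5:**
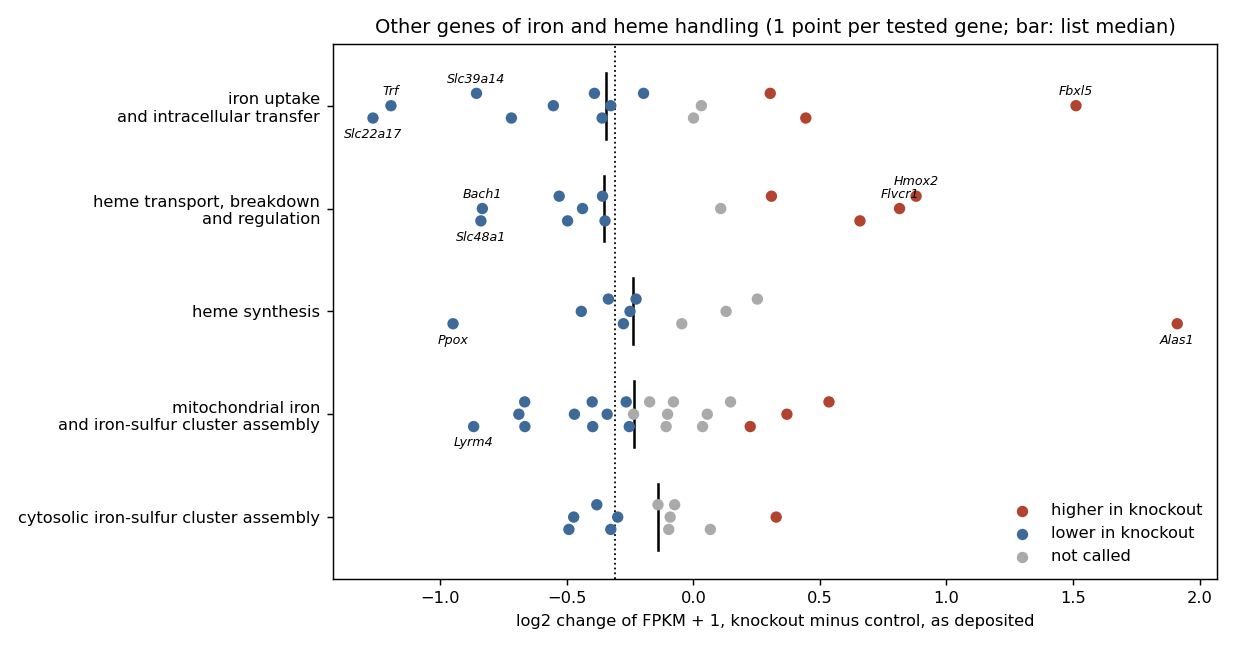
Log2 change of FPKM + 1, knockout minus control, as deposited, for the tested genes of 5 iron and heme lists, 1 point per gene, colored by the limma call. The short bars are list medians and the dotted line is the median of all tested genes, -0.31. Alas1 and Fbxl5 lie at the far right, at 1.91 and 1.51.

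Among 10431 tested genes outside the set, left after predicted genes (symbols that begin with Gm and a digit or end in Rik) were set aside, likeness was measured as the distance between profiles of log2(FPKM + 1) over the 6 libraries, each centred on its mean. Closest to Fth1 were Msra, a methionine sulfoxide reductase, the chemokine Ccl6 and Pwwp2b, at distances of 0.11, 0.18 and 0.19. Msra stood at 68.5 ± 3.87 FPKM in knockouts and 22.4 ± 2.03 FPKM in controls, and Ccl6 at 9432 ± 494 FPKM in knockouts and 3192 ± 295 FPKM in controls. Closest to Slc40a1 were Epb41l1, Sh2d1b1 and Ccdc125, at 0.14, 0.15 and 0.17. Closest to Tfrc were Nectin2, Rcbtb1 and Ero1a, at 0.13, 0.16 and 0.17. Closest to Hmox1 were Rrm2, a subunit of ribonucleotide reductase, the glycolytic enzyme Pgk1 and the glutathione transferase Gstm4, at 0.17, 0.18 and 0.19. The 6 libraries fall in 2 groups, so the distance takes in the difference between them.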

How the data were processed

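RNA of sorted alveolar macrophages was sequenced from 3 Hdac3 knockout and 3 control libraries. Trizol extraction and BGI library preparation are stated per the labels' protocols. Bowtie2, RSEM and the build mm10 are named, without versions, per the submitters' processing notes. The authors deposited FPKM per gene with 1 column per library, per the file headers. Counts were not used here, and absolute depth is unknown. The index given beside depth came from the most frequent FPKM ratio between libraries of genes with 1 transcript and 0.4 to 3 FPKM. It does not measure sequencing depth.

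Of 18392 gene IDs, 18342 matched RefSeq on GRCm38.p6, and older symbols were matched by ID. The filter kept genes whose mean over the 6 libraries reached 1 FPKM. The linear model, with trended and robust variance, was fitted to log2(FPKM + 1) by limma (version 3.58.1, R 4.3.3). TMM factors (30% of log ratios and 5% of levels trimmed at each end) were computed from the FPKM matrix by the published formula. They divided knockout libraries by 0.87 to 0.88 and control libraries by 1.13 to 1.15. The fit and the scaling were tested on simulated data in which most genes were unchanged. In the real data 69.8% of all tested genes were called as deposited. The simulations therefore do not show how the scaling performs here. Ratios and shares were compared by exact permutation (scipy 1.17.1). Members and lists were chosen with earlier results of these data known. Wider genes were named by rule: up to 4 called genes per list, taken by size of change, with groups apart and a mean of 5 FPKM or more in 1 group. Other scalings, pseudocounts, filters, variance models, a replicate block and fits without 1 library were tried.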

Additional observations from a re-analysis of the deposited data

How the results depend on the processing

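Scaling moved the counts over all genes and over the wider lists together. After TMM scaling 3248 of all tested genes were higher and 2808 lower, against 1194 and 6376 as deposited, and in the wider iron lists 29 were higher and 12 lower, against 12 and 37. With libraries scaled by their sum without the 12 most abundant genes (the 10 most abundant of each library, pooled), 20 of the wider genes were higher. The log2 change of Urod was 0.025 after TMM scaling, against -0.34 as deposited. Of 120 alternative values for the members' log2 changes, 113 kept their direction and their side of the threshold, 5 lost the call (4 of Ncoa4, 1 of Ireb2), 2 gained it (Slc11a2 after TMM and after the scaling without abundant genes, where the log2 change was 0.27), and 0 reversed. Leaving out 1 library at a time gave 5 to 6 members higher and 3 lower, and 10 to 13 wider genes higher and 33 to 37 lower. It gave a ferritin share difference of 4.50 to 4.75 percentage points and log2 ratio differences of 0.34 to 0.41 for Fth1 to Ftl1, -2.88 to -2.41 for Slc40a1 to Tfrc, -3.01 to -2.72 for Slc11a2 to Slc11a1 and -0.022 to 0.17 for Ireb2 to Aco1, the lowest without knockout library 1. Counts of single lists also moved by over 1.5 times in 6 cases other than scaling: iron export had 1 lower gene with no filter, against 0, heme synthesis had 2 higher without knockout library 1, against 1, and cytosolic cluster assembly had 0 higher with a replicate block or without knockout library 2, knockout library 3 or control library 3, against 1 (Bola2; limma adjusted p = 0.070 with the block). Replicate numbers gave no sign of pairing: same-numbered libraries deviated with correlations of -0.11, -0.06 and -0.09. With a replicate block 6 members were higher and 3 lower, and 1180 of all genes higher and 6193 lower. The paired exact test of the ratios and share cannot go below p = 0.25. No counting error can be given, because FPKM hold no depth. The causes of these changes were not tested.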
